A study of Mus musculus with 6 samples.

Results

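The inflammasome and pyroptosis genes were 10 named genes, *Nlrp3*, *Nlrp1b*, *Nlrc4*, *Pycard*, *Casp1*, *Casp4*, *Gsdmd*, *Il1b*, *Il18* and *Il1rn*. They were taken by gene name from a table of 22248 genes, and all 10 were listed. RNA was measured in resting bone-marrow-derived macrophages (BMDMs), cells grown from mouse bone marrow in medium with macrophage colony-stimulating factor. Of 6 libraries, 3 came from Lyz2cre mice (control) and 3 from Lyz2cre:CITED2Fl/Fl mice (CITED2-deficient). Both genotypes carried the Lyz2 Cre allele on a C57BL/6 background. Cre is made there from the *Lyz2* locus, which is active in macrophages and granulocytes, and in the second genotype it removes the floxed part of *Cited2* in those cells. The labels give an age of 10 weeks for all mice, the methods of the study a younger one, and no agent was added to the cells beyond the culture medium. The series gives n = 3 mice, but no label ties a library to a mouse, so the p-values measure the spread between libraries, which may be technical. The question of the comparison was whether loss of CITED2, a transcriptional regulator that binds CBP and p300, changes gene expression in macrophages that have not been stimulated.

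Inflammasomes are protein complexes that form in the cytosol of macrophages when a sensor detects microbial products or cell damage. The sensor recruits the adaptor ASC, which gathers and activates caspase-1. Caspase-1 cuts the precursors of interleukin-1β and interleukin-18 and also gasdermin D, whose released part forms pores in the plasma membrane and leads to a lytic death called pyroptosis. A second route runs through caspase-11, the product of mouse *Casp4*, which senses cytosolic lipopolysaccharide and cuts gasdermin D directly. Transcripts of *Nlrp3* and *Il1b* are low or moderate in resting macrophages and are known to rise in a step called priming, when Toll-like receptors activate NF-kB.

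Of the 10 genes, the sensors *Nlrp3*, *Nlrp1b* and *Nlrc4* and the adaptor *Pycard* were lower in CITED2-deficient BMDMs, and the other 6 were higher, *Il18* with the least certainty. *Nlrp3* and *Pycard*, which encodes ASC, stood at 0.499 and 0.559 times their control means. *Nlrc4* and *Nlrp1b* stood at 0.576 and 0.77 times. *Casp4* rose 2.17-fold and *Casp1* 1.49-fold, *Il1b* rose 2.01-fold, and *Il1rn*, which encodes the interleukin-1 receptor antagonist, rose 2.65-fold. *Gsdmd* rose 1.2-fold from a high level, and *Il18* moved 1.33-fold with groups that overlapped. Levels are FPKM (fragments per kilobase of transcript with library size scaled out), and these folds are ratios of mean FPKM.

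All 10 genes had a mean FPKM of at least 1, the level required for the test, which was limma on log2(FPKM + 1) over 11687 genes with Benjamini-Hochberg adjustment and a threshold of 0.05. All 10 passed, 6 as higher and 4 as lower in CITED2-deficient BMDMs. Of all genes tested, 51.3% passed, 16.7% as higher and 34.6% as lower, so a share of calls alone says little about these genes. Groups did not overlap for 9 of the 10, against 59.9% of all genes tested. The median log2 fold change was 0.32 over the 10 genes and -0.10 over all genes tested. After median-ratio scaling, which sets a factor for each library from its typical gene, the median of all genes was -0.0069 and the share of higher genes among all calls moved from 32.5% to 52.0%. The 10 genes kept their directions and their calls under that scaling.

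The libraries held 17289286 to 18952077 fragments in control BMDMs and 22583995 to 26100410 in CITED2-deficient BMDMs, 1.34 times as many on average, numbers that were recovered from the steps between FPKM values. *Cited2* itself had an FPKM of 71.7, 79.3 and 75.5 in control BMDMs and 9.27, 7.22 and 7.53 in CITED2-deficient BMDMs. The macrophage markers *Adgre1*, *Csf1r* and *Cd68* had at least 906 FPKM in every library, whereas *Lyz2*, the gene that carries Cre, was at 30.6 to 32.5 FPKM in control BMDMs and 9.39 to 10.0 in CITED2-deficient BMDMs. Of 8 macrophage markers, 1 was higher, 5 were lower and 2 did not pass (5624 to 5694 against 5287 to 5367 summed FPKM). Beside the counts of this list and those that follow, 16.7% of all tested genes were higher and 34.6% lower. The macrophage markers that did not pass, *Cd68* and *Cd14*, passed as higher after median-ratio scaling (log2 fold change 0.16 and 0.19), and the others kept their calls. Of 12 neutrophil and granulocyte precursor markers, 10 were tested, with 3 higher, 6 lower and 1 not past the threshold. Their summed FPKM was 803 to 872 in control BMDMs and 741 to 859 in CITED2-deficient BMDMs. That sum is carried by abundant genes, and single markers moved further. *Mpo*, *Elane* and *Prtn3*, genes of granule proteins made in precursors, were 8.31-fold, 5.74-fold and 5.66-fold lower in mean FPKM. The 3 higher were *Retnlg* (6.93-fold, from 5, 9 and 7 fragments in control libraries), *Ltf* (1.88-fold) and *Csf3r* (1.22-fold). *Ly6g* and *Cxcr2* of that list were below 1 FPKM in every library. In the fit without a filter *Cxcr2* was higher (limma adjusted p = 0.0006) and *Ly6g* did not pass. All 6 tested fibroblast or stromal markers were higher, with a summed FPKM over the list of 42.0 to 50.1 against 170 to 539, the highest in CITED2-deficient replicate 1. Of 5 monocyte markers, 3 were higher and 2 lower (421 to 467 against 288 to 320 summed FPKM). All 5 listed dendritic cell markers and 4 of 5 T and B cell markers were below 1 FPKM in every library, as were 2 of 4 mast cell markers, of which *Kit* was the 1 gene tested and did not pass. The summed FPKM of these 3 lists was 0.591 to 0.64, 0.896 to 1.83 and 2.37 to 3.12 in control BMDMs and 0.921 to 1.42, 1.21 to 1.74 and 1.39 to 1.8 in CITED2-deficient BMDMs. The part of these cells in the results below was not tested, and in bulk RNA fewer cells of a type and less RNA per cell cannot be told apart.

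**Figure D1:**
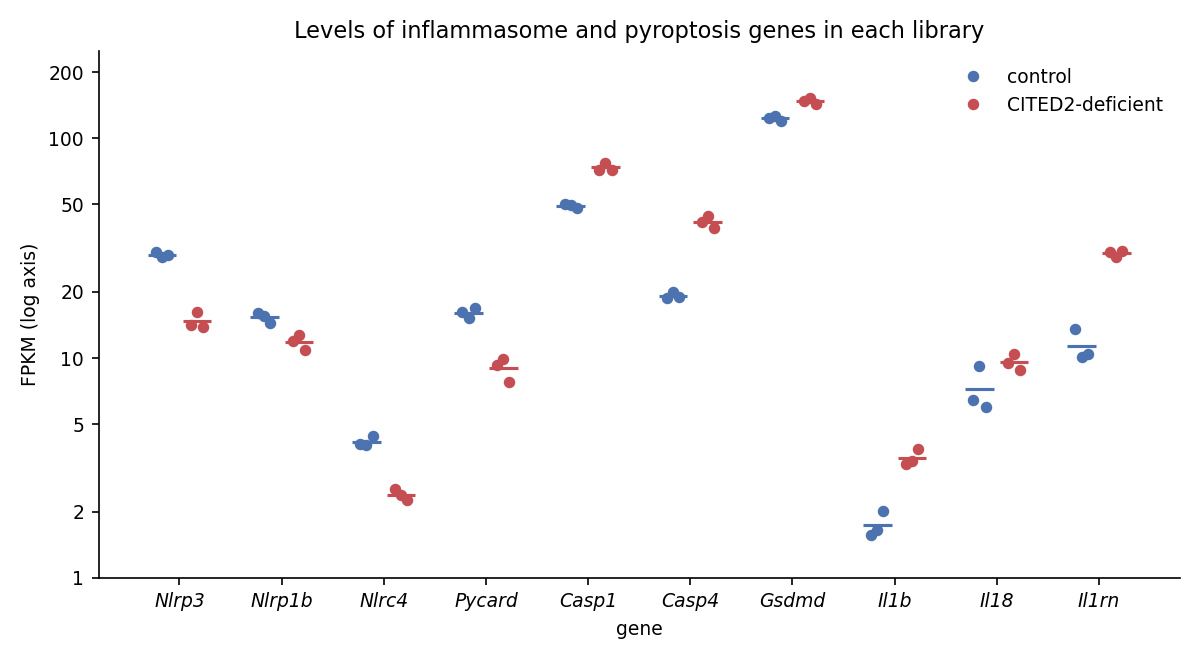
FPKM (log axis) of each of the 10 genes in the 3 control libraries (blue) and the 3 CITED2-deficient libraries (red), with a line at each mean. The red points lie below the blue for *Nlrp3*, *Nlrp1b*, *Nlrc4* and *Pycard*, above them for *Casp1*, *Casp4*, *Gsdmd*, *Il1b* and *Il1rn*, while for *Il18* the groups overlap.

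The levels of the 10 genes spanned a wide range in resting control BMDMs. Per length, *Gsdmd* was highest with a mean FPKM of 123, followed by *Casp1* (49.3), *Nlrp3* (29.5) and *Casp4* (19.2). *Pycard* (16.1) and *Nlrp1b* (15.4) came next with values that overlapped between them, then *Il1rn* (11.3), *Il18* (7.20), *Nlrc4* (4.16) and *Il1b* (1.75). In CITED2-deficient BMDMs the order changed. *Gsdmd* (148) and *Casp1* (73.7) again led, but *Casp4* (41.6) and *Il1rn* (30) now stood above *Nlrp3* (14.7) and *Nlrp1b* (11.8). *Il18* (9.56) and *Pycard* (9) overlapped, and *Il1b* (3.52) had moved above *Nlrc4* (2.39). The lengths behind these values are means over annotated transcripts, so levels compared between genes also depend on which transcripts the cells make.

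To show the sequence upstream of genes that moved to either side, the 250 bases before a transcript start are given for 3 genes that rose (*Casp4*, *Casp1* and *Il1rn*) and for the sensor and adaptor that fell (*Nlrp3* and *Pycard*). They are RefSeq sequences of the GRCm38.p6 build, the same assembly as mm10, written 5′ to 3′ in the direction of the gene, with capitals where a searched motif matched. For *Casp4*, *Il1rn* and *Nlrp3*, which have several starts, the most upstream is shown.
Casp4, chr9:5308599-5308848, plus strand: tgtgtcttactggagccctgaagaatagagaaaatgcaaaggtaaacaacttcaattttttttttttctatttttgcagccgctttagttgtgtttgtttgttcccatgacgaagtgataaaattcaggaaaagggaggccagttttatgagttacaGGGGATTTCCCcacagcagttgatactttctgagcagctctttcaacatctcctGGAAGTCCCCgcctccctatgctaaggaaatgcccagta
Casp1, chr9:5298267-5298516, plus strand: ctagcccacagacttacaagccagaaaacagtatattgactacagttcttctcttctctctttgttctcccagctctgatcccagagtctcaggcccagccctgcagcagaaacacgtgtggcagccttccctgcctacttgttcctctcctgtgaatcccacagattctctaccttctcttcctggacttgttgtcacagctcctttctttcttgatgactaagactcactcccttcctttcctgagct
Il1rn, chr2:24336610-24336859, plus strand: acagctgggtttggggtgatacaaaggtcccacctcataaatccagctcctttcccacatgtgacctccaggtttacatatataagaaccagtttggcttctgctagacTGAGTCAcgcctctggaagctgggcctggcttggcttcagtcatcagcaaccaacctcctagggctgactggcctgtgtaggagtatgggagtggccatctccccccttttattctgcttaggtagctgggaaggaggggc
Nlrp3, chr11:59541319-59541568, plus strand: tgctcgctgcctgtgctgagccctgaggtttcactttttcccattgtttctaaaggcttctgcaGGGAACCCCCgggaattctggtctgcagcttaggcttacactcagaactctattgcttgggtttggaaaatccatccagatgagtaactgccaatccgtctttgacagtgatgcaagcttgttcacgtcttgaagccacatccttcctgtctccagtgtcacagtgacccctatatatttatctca
Pycard, chr7:127993868-127994117, minus strand: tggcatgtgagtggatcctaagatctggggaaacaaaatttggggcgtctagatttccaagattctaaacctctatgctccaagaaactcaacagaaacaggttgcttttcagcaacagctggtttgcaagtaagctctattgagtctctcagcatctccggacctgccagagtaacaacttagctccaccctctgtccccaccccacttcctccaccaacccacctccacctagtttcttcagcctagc

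The table of promoters held 14 windows for 9 of the 10 genes, and *Gsdmd* had none. The motifs searched, on both strands, were the interferon-stimulated response element (TTTC and TTTC with any 2 bases between), the gamma-activated site bound by STAT proteins (TTCNNNGAA), the AP-1 site (TGANTCA) and the NF-kB consensus. The *Casp4* window held 3 matches to the NF-kB consensus. A pair of them overlap and lie 93 to 83 bases before the start, and 1 on the other strand lies 39 to 30 bases before it. The *Nlrp3* window held 1 match to the same consensus 186 to 177 bases before the start, and the *Il1rn* window held 1 AP-1 match 141 to 135 bases before it. The NF-kB consensus occurs in 7.25% and the AP-1 site in 6.75% of all 32851 windows of this length. Neither the interferon-stimulated response element (2.98% of all windows) nor the gamma-activated site (7.02%) matched in any of the 14 windows, which says nothing about sites farther away or with other letters.

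*Nlrp3* encodes the sensor that responds to potassium efflux and many forms of cell damage (ENSMUSG00000032691, chromosome 11, 59541568 to 59566956, mm10). Its FPKM was 30.3, 28.7 and 29.4 in control BMDMs and 14.1, 16.2 and 13.9 in CITED2-deficient BMDMs. The lowest control value lay well above the highest CITED2-deficient value, and the genotypes differed by far more than the libraries within them. On the log2(FPKM + 1) scale it fell by 0.96 (standard error, SE, 0.063, limma adjusted p = 2.54e-06), a larger fall than for all but 1.75% of the genes tested.

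The next gene, *Pycard* (ENSMUSG00000030793, chromosome 7, 127989708 to 127993867) encodes ASC, the adaptor that joins sensors to caspase-1. Its FPKM was 16.2, 15.2 and 16.9 in control BMDMs and 9.32, 9.92 and 7.75 in CITED2-deficient BMDMs. CITED2-deficient replicate 3 was the lowest, and the groups did not overlap. The log2 fold change was -0.78 (SE 0.088, limma adjusted p = 8.44e-05), and 3.07% of the tested genes fell further.

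*Nlrc4* (ENSMUSG00000039193, chromosome 17, 74425438 to 74459142), the partner of NAIP proteins in the response to flagellin and bacterial secretion systems, was the least abundant of the 3 sensors among the 10 genes. Its FPKM was 4.06, 4 and 4.4 in control BMDMs and 2.53, 2.38 and 2.27 in CITED2-deficient BMDMs, again without overlap. The log2 fold change was -0.60 (SE 0.093, limma adjusted p = 0.000633). It was -0.77 with a pseudocount of 0.1, since the value of 1 that is added before the log damps the change of a gene at this level. The recovered fragment numbers of *Nlrc4* were not whole, and the cause was not tested. The pseudogene *CT033749.1* lies within *Nlrc4* on the same strand and was at 0 to 0.149 FPKM in control and 0.249 to 0.887 in CITED2-deficient BMDMs, so fragments could have been divided between them. *Nlrp1b* (ENSMUSG00000070390, chromosome 11, 71153102 to 71230733) encodes a sensor that responds to anthrax lethal factor in some mouse strains. It had the smallest fall, from 16.1, 15.5 and 14.5 FPKM to 12.0, 12.7 and 10.9 (log2 fold change -0.35, SE 0.07, limma adjusted p = 0.00269). After median-ratio scaling its change was -0.26 (limma adjusted p = 0.0156). *Nlrp1b* lies in a cluster with the similar gene *Nlrp1a*, so fragments could have been divided between them. *Nlrp1a* was lower in abundance and did not pass (log2 fold change -0.21, limma adjusted p = 0.193).

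The caspase genes *Casp1* (ENSMUSG00000025888, chromosome 9, 5298517 to 5307265) and *Casp4* (ENSMUSG00000033538, chromosome 9, 5308828 to 5336783) are neighbors on the same strand, 1562 bases apart. *Casp4* had an FPKM of 18.8, 19.9 and 18.9 in control BMDMs and 41.4, 44.5 and 39.0 in CITED2-deficient BMDMs. The lowest CITED2-deficient value lay far above the highest control value. The log2 fold change was 1.07 (SE 0.055, limma adjusted p = 5.01e-07), and 3.28% of the tested genes rose further. *Casp1* had 50.4, 49.5 and 48.1 in control BMDMs and 72, 77.3 and 72 in CITED2-deficient BMDMs. It rose by 0.57 on the log2 scale (SE 0.041, limma adjusted p = 4.32e-06). The 95% intervals were 0.95 to 1.2 for *Casp4* and 0.48 to 0.66 for *Casp1*. No test result is given for the difference between them, since an exact permutation test of 3 against 3 libraries cannot go below p = 0.1. *Casp12*, another caspase of the same family, was below the FPKM filter with 0.147, 0.257 and 0.235 FPKM against 1.23, 1.23 and 1.24. It was higher in the fit without a filter (limma adjusted p = 0.000283), from 5, 8 and 8 fragments against 56, 50 and 58. These caspases are related in sequence, and fragments could have been divided between relatives.

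*Gsdmd* (ENSMUSG00000022575, chromosome 15, 75862327 to 75867408), the pore-forming target of both caspases, was the most abundant of the 10 genes. Its FPKM was 124, 126 and 120 in control BMDMs and 148, 153 and 143 in CITED2-deficient BMDMs. The difference was small against the level but larger than the spread, with a log2 fold change of 0.26 (SE 0.034, limma adjusted p = 0.000217).

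*Il1b* (ENSMUSG00000027398, chromosome 2, 129364570 to 129371139), the gene of the fever-inducing cytokine interleukin-1β, was the lowest of the 10 genes in control BMDMs. Its FPKM was 1.57, 1.65 and 2.02 in control BMDMs and 3.31, 3.4 and 3.84 in CITED2-deficient BMDMs. Behind these values stand 24, 23 and 31 fragments against 68, 62 and 81, so counting error alone is a visible part of their spread. The groups did not overlap, and the log2 fold change was 0.72 (SE 0.11, limma adjusted p = 0.000686). With a pseudocount of 0.1 it was 0.97, and with voom on the fragments 1.00. The antisense gene *Il1bos*, which overlaps it on the other strand, was at 0 to 0.0398 FPKM in every library.

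*Il1rn* (ENSMUSG00000026981, chromosome 2, 24336853 to 24351494) encodes the antagonist that occupies the interleukin-1 receptor without signaling. Its FPKM was 13.5, 10.1 and 10.4 in control BMDMs and 30.4, 28.8 and 30.8 in CITED2-deficient BMDMs, the largest rise of the 10 genes. The log2 fold change was 1.34 (SE 0.10, limma adjusted p = 4.8e-06), and 2.11% of the tested genes rose further.

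*Il18* (ENSMUSG00000039217, chromosome 9, 50554827 to 50581840), the gene of a cytokine that macrophages hold as a ready precursor, had the least certain change. Its FPKM was 6.45, 9.19 and 5.97 in control BMDMs and 9.45, 10.4 and 8.81 in CITED2-deficient BMDMs. Control replicate 2 lay within the CITED2-deficient range, and the control group was the more spread of the pair. *Bco2*, which overlaps *Il18* on the other strand, was at 0.573 to 0.899 FPKM. The log2 fold change was 0.38 (SE 0.14, 95% interval 0.076 to 0.69, limma adjusted p = 0.0408). The call was lost without a filter on FPKM, with no trend in the variance, and on leaving out any library other than control replicate 2 was left out (limma adjusted p from 0.0575 to 0.137). It stood at 0.55 without control replicate 2 (limma adjusted p = 0.00179).

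**Figure D2:**
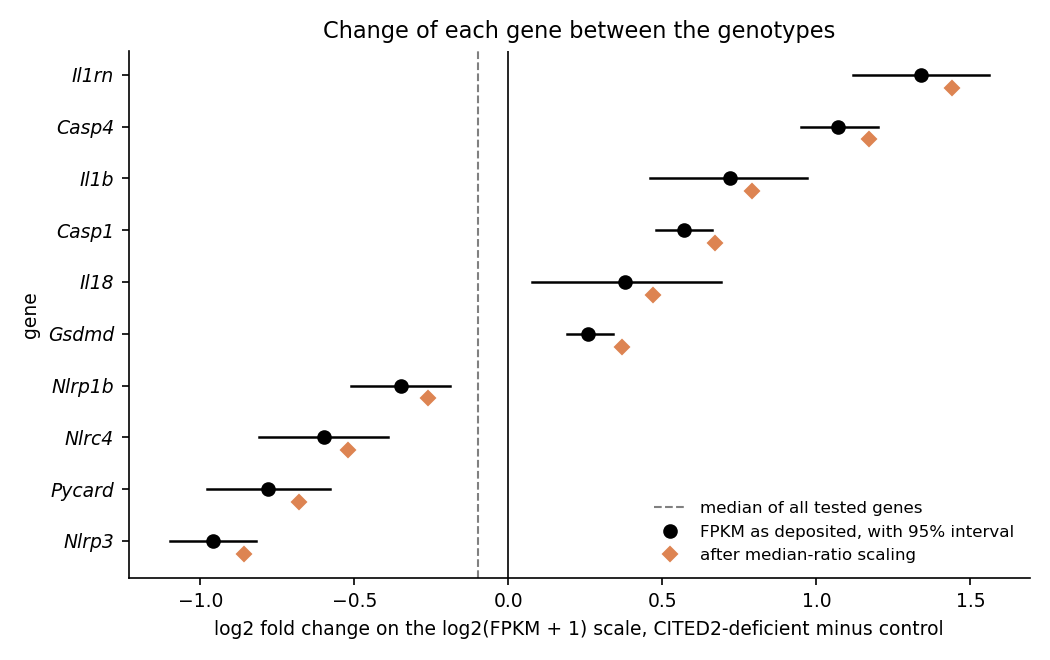
Log2 fold change (x axis, log2(FPKM + 1) scale, CITED2-deficient minus control) of each of the 10 genes, with black points and 95% intervals for the FPKM as deposited and orange diamonds after median-ratio scaling. The dashed line marks the median of all tested genes (-0.10), with *Nlrp3* (-0.96) farthest to its left and *Il1rn* (1.34) farthest to its right.

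Ratios between genes of the same library do not depend on the scaling between libraries. The ratio of *Il1rn* to *Il1b*, the antagonist to its cytokine, was 8.62, 6.11 and 5.13 in control BMDMs and 9.17, 8.47 and 8.01 in CITED2-deficient BMDMs. The means were 6.62 ± 1.80 and 8.55 ± 0.585 (SD, n = 3 each), and control replicate 1 fell within the CITED2-deficient range. The mean log2 difference was 0.40 (two-sided exact permutation test, p = 0.3, where 0.1 is the smallest p that 3 against 3 libraries allow). With so few libraries the test cannot pass a threshold of 0.05, so whether the balance shifted is not settled by it.

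The other ratios were chosen after the values had been seen and are given without a test. *Casp1* to *Nlrp3*, a protease to a sensor upstream of it, was 1.67, 1.72 and 1.63 in control BMDMs and 5.12, 4.77 and 5.18 in CITED2-deficient BMDMs. *Casp4* to *Casp1* went from 0.374, 0.403 and 0.393 to 0.575, 0.576 and 0.541. *Nlrp3* to *Pycard*, a sensor to its adaptor, was 1.87, 1.89 and 1.74 against 1.51, 1.63 and 1.79. Both of these transcripts fell, and their ratio overlapped between the genotypes, unlike the other pair of ratios.

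**Figure D3:**
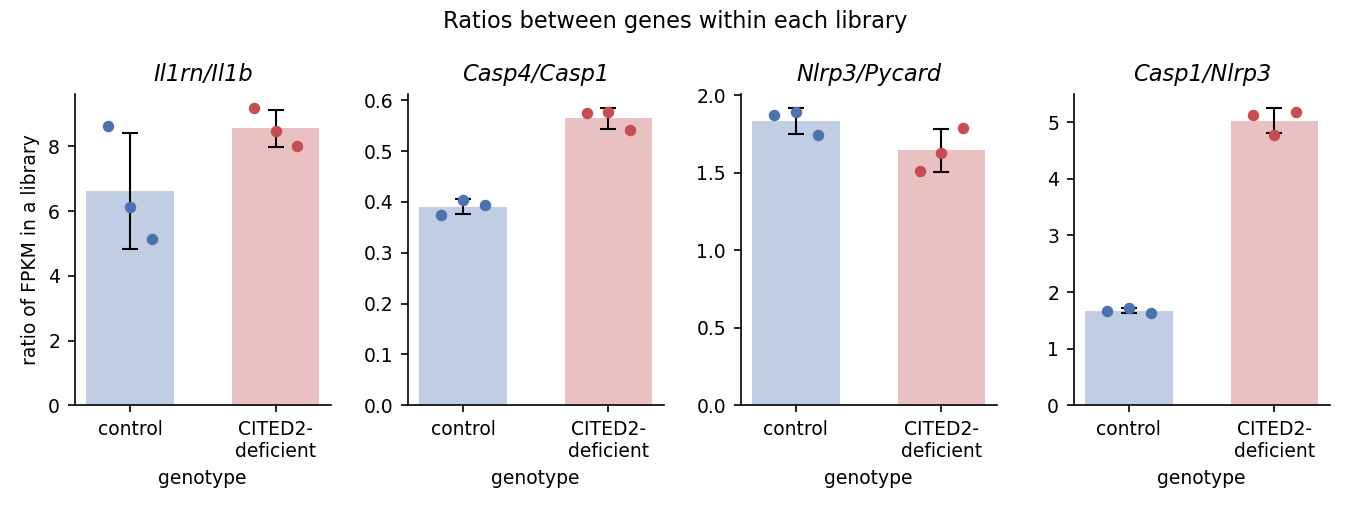
Ratios of FPKM within each library (y axes from 0, no unit) for 4 pairs of genes, as points for the 3 libraries of each genotype with bars at the mean and error bars of 1 SD. *Casp1*/*Nlrp3* stands near 1.67 in control and 5.02 in CITED2-deficient BMDMs, while *Il1rn*/*Il1b* and *Nlrp3*/*Pycard* overlap between the genotypes.

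Within the genotypes the spread differed between the genes. The widest deviations from a group mean were those of *Il18* in control replicates 2 (0.333) and 3 (-0.215) and of *Il1rn* in control replicate 1 (0.25), all on the log2 scale. In CITED2-deficient replicate 2 the log2 values of *Nlrp3*, *Pycard*, *Nlrp1b*, *Casp1*, *Casp4*, *Gsdmd* and *Il18* were above their group mean (by 0.047 to 0.134). Those of *Il1b* and *Il1rn* were below it (-0.037 and -0.056), and that of *Nlrc4* was just below it (-0.004). Genes whose pattern over the 6 libraries was most like that of *Nlrp3* were *Kif3a*, *Appl2* and *Vps39* (Pearson's r from 0.9984 to 0.9998). For *Casp1* they were *Aftph*, *Slamf7* and *Mpeg1* (0.9989 to 0.9996), and for *Il1b* they were *Coq10b*, *Rell1* and *Gatad2a* (0.9972 to 0.9983). With 6 libraries that mostly differ by genotype such values are common, since 1543, 1026 and 732 tested genes exceeded an r of 0.95 with *Nlrp3*, *Casp1* and *Il1b*.

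The other sensors and adaptors moved in both directions. Of 13 further sensors and adaptors, 12 were listed and 9 tested, with 4 higher, 1 lower and 4 not past the threshold (median log2 fold change 0.16, against -0.10 for all tested genes). Of all tested genes, 16.7% were higher and 34.6% lower. *Aim2*, the sensor of cytosolic DNA, rose from 30.9 ± 4.52 to 55.0 ± 1.82 FPKM (SD, n = 3 each; log2 fold change 0.82, limma adjusted p = 5.76e-05). *Mefv*, which encodes the sensor pyrin, rose from 1.43 ± 0.192 to 3.01 ± 0.27 (0.73, limma adjusted p = 0.000853). *Naip2* (0.31) and *Naip6* (0.35), receptors that act with NLRC4, also rose, while *Naip5* (0.16) did not pass as deposited and did after median-ratio scaling. *Pstpip1*, a binding partner of pyrin, was the 1 gene that fell (-0.50, limma adjusted p = 0.000146). *Nek7*, a kinase that NLRP3 needs for assembly, did not pass, at 38.4, 39.3 and 40.4 FPKM against 35.2, 37.7 and 37.2.

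Genes that feed potassium efflux and oxidant signals into NLRP3 were listed separately. All 6 were tested, with 4 lower, 1 higher and 1 not past the threshold (median -0.35), where 34.6% of all tested genes were lower. After median-ratio scaling 3 were lower and 2 higher, where 2490 of all 11687 tested genes were lower and 2696 higher. *P2rx7*, the ATP-gated channel that is the classical trigger of NLRP3, had 82.0, 79.8 and 81.9 FPKM in control BMDMs and 37.7, 40.6 and 40.8 in CITED2-deficient BMDMs (log2 fold change -1.02, limma adjusted p = 8.67e-08). *Panx1*, a channel for ATP release, fell from 7.01 ± 0.212 to 3.57 ± 0.347 (-0.81, limma adjusted p = 5.97e-05). *Txnip*, a thioredoxin-binding protein that associates with NLRP3, fell from 891 ± 19.8 to 619 ± 5.17 (-0.52, limma adjusted p = 3.9e-07). *P2rx4* also passed as lower (-0.18), a call that was lost after median-ratio scaling (-0.079). *Brcc3*, a deubiquitinase of NLRP3, was the gene that rose (0.26, limma adjusted p = 0.0123), and *Kcnk6*, a potassium channel, did not pass (0.14) but did after that scaling.

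Of 12 executioner and membrane rupture genes, 10 were listed and 9 tested, with 3 higher, 2 lower and 4 not past the threshold (median 0.11). The share that passed among all tested genes was 51.3%, with 16.7% higher and 34.6% lower. *Ninj1*, which encodes the protein that ruptures the plasma membrane after gasdermin pores form, fell from 649 ± 17.0 to 421 ± 18.2 FPKM (log2 fold change -0.62, limma adjusted p = 1.15e-06). *Casp6* fell as well (-0.56). *Gsdme*, a gasdermin cut by caspase-3, rose from 3.93 ± 0.266 to 6.06 ± 0.363 (0.52, limma adjusted p = 0.000924). Of the genes of necroptosis, a separate lytic death, *Zbp1* and *Mlkl* passed as higher. *Zbp1*, a nucleic acid sensor, rose from 12.4 ± 1.79 to 84.1 ± 8.14 (2.68, limma adjusted p = 6.45e-08), and *Mlkl*, its pore-forming executioner, from 8.12 ± 0.825 to 23.4 ± 2.42 (1.42, limma adjusted p = 2.13e-06). *Ripk3*, the kinase between them, did not pass (0.16) except after median-ratio scaling (0.26), and *Casp8* did not pass (0.033).

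Among the brakes on the pathway, 9 of 11 were listed and 7 tested, with 3 higher, 1 lower and 3 not past the threshold (median -0.019). Over all tested genes the shares were 16.7% higher and 34.6% lower. *Il18bp*, which encodes a secreted protein that captures interleukin-18, rose from 7.93 ± 0.861 to 17.6 ± 1.13 FPKM (log2 fold change 1.06, limma adjusted p = 7.63e-06). *Trim30a* (1.33) and *Tnfaip3* (0.27), the latter an inhibitor of NF-kB, also rose, and *Irak3*, an inhibitor of interleukin-1 receptor signaling, fell (-0.34, limma adjusted p = 0.00255). *Dpp8* (-0.063) and *Dpp9* (-0.019), the peptidases that hold NLRP1 inactive, did not pass. *Il1r2*, the decoy receptor for interleukin-1, was below the filter, with 0.118, 0.257 and 0.0587 FPKM against 0.613, 0.788 and 1.36. It was higher in the fit without a filter (limma adjusted p = 0.0133), from 2, 4 and 1 fragments against 14, 16 and 32.

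Of 14 interleukin-1 family ligands, receptors and signaling genes, 12 were listed and 7 tested, with 4 higher, 1 lower and 2 not past the threshold (median 0.21). Among all tested genes 16.7% were higher and 34.6% lower. *Il1a*, the other interleukin-1, was below the filter at 0.67, 0.352 and 0.454 FPKM against 0.439, 0.538 and 0.854, and at 12 to 44 fragments per library a change of the size of that of *Il1b* could not be judged. *Il1r1*, the signaling receptor, was also below it and did not pass without a filter (limma adjusted p = 0.0920). *Il1rl1*, the receptor for interleukin-33, had a mean of 1.35 against 0.594 FPKM, also below the filter, and was lower in the fit without one (limma adjusted p = 0.00578). *Il18rap* (0.58), *Irak2* (0.53), *Myd88* (0.25) and *Traf6* (0.21), a receptor chain and steps of the signaling path, were higher. *Irak4* was lower (-0.16), a call that was lost after median-ratio scaling (-0.058).

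**Figure D4:**
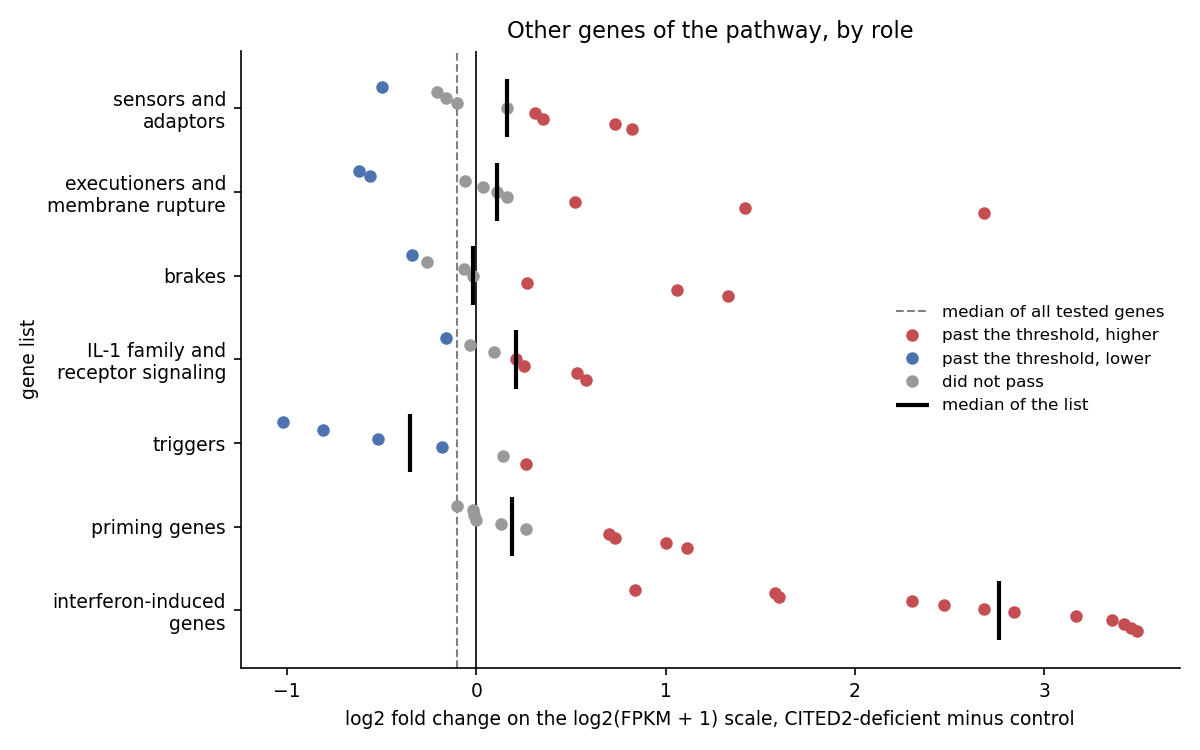
Log2 fold change (x axis, log2(FPKM + 1) scale, CITED2-deficient minus control) of each tested gene in 7 lists, red where higher and blue where lower past the threshold and grey where it did not pass, with a black bar at the median of a list. The triggers have a median of -0.35 and the interferon-induced genes of 2.76, against -0.10 for all tested genes (dashed line).

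*Nlrp3* and *Il1b*, which are both known as genes that priming induces, moved in opposite directions, and the other priming genes of TLR and NF-kB were divided. Of 11 genes, 10 were tested, with 4 higher, 0 lower and 6 not past the threshold (median 0.19). Of all tested genes 51.3% passed, 16.7% as higher and 34.6% as lower. *Ccl4* (1.00), *Ptgs2* (1.11), *Tnf* (0.73) and *Cxcl2* (0.70) rose, and the study had picked the first 3 of these from the same libraries. *Nfkbia* (-0.02) and *Nfkbiz* (-0.014), direct targets of NF-kB, and its subunit genes *Nfkb1* (-0.10) and *Rela* (-0.0033) did not pass. *Ccl3* (0.13) did not pass as deposited and did after median-ratio scaling (0.23, limma adjusted p = 0.00818). *Il6* was at 0 to 0.247 FPKM in every library. Interferon-induced genes were listed because *Casp4* and *Casp1* are known to respond to interferon. All 12 were higher, against 16.7% of all tested genes, with log2 fold changes from 0.84 for *Irf1* to 3.49 for *Ifit3*. The study had already reported raised interferon responses in the same libraries, so this count is not independent of that report. The summed FPKM of the 12 genes was 316 to 343 in control BMDMs and 2273 to 2557 in CITED2-deficient BMDMs. Whether the changes of the inflammasome genes depend on those of the interferon-induced genes was not tested.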

How the data were processed

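RNA from 6 BMDM libraries was depleted of ribosomal RNA and made into stranded libraries. The authors aligned reads to mm10 by STAR and took gene values from Cuffdiff with GENCODE, and the deposited table holds 1 FPKM per gene and library, with tool versions and annotation release not given in the sources used here. FPKM already correct for length and library size. Depth was recovered from the steps between values, using mean transcript lengths of GENCODE vM21. For 21355 of 22220 genes (96.1%) every library came out whole to a tolerance of 0.02. Mean chi-square per gene between replicates was 2.21 to 2.83 in control and 3.59 to 5.51 in CITED2-deficient BMDMs, above sampling noise, and no library was treated as a repeat of another.

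The 11687 genes whose FPKM averaged 1 or more were compared as log2(FPKM + 1) by limma (version 3.58.1, R version 4.3.3), letting the variance follow expression and adjusting p over all of them (Benjamini-Hochberg). The pseudocount understates changes of low genes. The code was tested on simulated data. The members and gene lists were chosen with earlier results of these data known. Genes named are the members, *Cited2*, list genes, and the 3 most correlated with *Nlrp3*, *Casp1* and *Il1b*. Alternatives were other pseudocounts, filters and scalings, no variance trend, array weights, a replicate block, 1 library left out, and voom on recovered fragments. Cuffdiff was not run.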

Additional observations from a re-analysis of the deposited data

How the results depend on the processing

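Of the 10 genes, 9 kept their direction and call in every alternative in which they were tested, and *Nlrc4* and *Il1b* were not tested with a mean FPKM of at least 5. *Il18* kept its direction in all 16 alternatives and lost its call in 7 (log2 fold changes 0.27 to 0.55, limma adjusted p from 0.00179 to 0.137). With each library left out in turn, 9 to 10 of the 10 genes were called, 5 to 6 as higher and 4 as lower. Over all genes tested that gave 5211 to 5475 calls against 5994, with 1776 to 1832 higher and 3419 to 3684 lower. Median-ratio scaling moved the lower genes from 4044 to 2490 and the higher from 1950 to 2696. The 60 tested genes of the other pathway lists gave 40 calls, 31 higher and 9 lower, and 35 to 43 in the alternatives. Of the 31, 12 came from the list of interferon-induced genes, and the other lists were not screened for genes that interferon induces. Over all tested genes 51.3% were called, 16.7% as higher and 34.6% as lower. *Cited2* ranged from -3.19 to -3.03 and the log2 difference in the *Il1rn* to *Il1b* ratio from 0.23 to 0.61 with a library left out.

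Replicate numbers are shared by the genotypes, but nothing in the labels pairs them. Deviations from the group means of same-numbered libraries correlated at 0.0138, 0.00784 and 0.0402, and not every library correlated best with its own number. With a replicate block 5708 genes were called, and all 10 members. Depth limits *Il1b* most, with 23 to 81 fragments per library.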
